A study of Mus musculus with 30 samples.

Results

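Murine erythroleukemia (MEL) cells are a mouse line of transformed red cell precursors that make hemoglobin when treated with DMSO. Of the 30 libraries of the study, the 10 of day 5 are described here: 5 from Abcb10-null MEL cells and 5 from WT MEL cells, taken by the genotype and time in their labels and compared over all genes. Both groups had been in 1.5% DMSO for 5 days, and both were cultured in the same medium, which held pyruvate and nonessential amino acids. The Abcb10-null cells came from a single CRISPR/Cas9 clone, made with a lentiviral guide against the first exon of *Abcb10*, so the effect of the gene and that of the clone cannot be told apart. The 10 libraries of day 0, 5 of each genotype without DMSO, are used only to show which differences the clone had before induction. The RNA had been depleted of ribosomal and globin RNA before sequencing, and globin genes are not described.

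Abcb10 is a transporter of the ATP-binding cassette family in the inner mitochondrial membrane, and it is induced as red cell precursors begin to make heme. Erythroid differentiation is driven by factors such as Gata1, Klf1 and Tal1, which raise genes of heme synthesis, iron uptake and the red cell membrane while genes of growth decline. ATF4 is the main transcription factor of the integrated stress response: when a kinase phosphorylates the translation factor eIF2, ATF4 protein is made, and it raises genes of amino acid synthesis, amino acid uptake and tRNA charging.

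Levels are given in CPM, the counts of a gene per 1000000 assigned reads after TMM scaling of the library, and they compare libraries for 1 gene, not genes with each other. Differences are log2 fold changes of Abcb10-null over WT, with their standard error (SE) and edgeR's adjusted p. A gene was called, or is said to have risen or fallen, when its adjusted p was under 0.05. Libraries held 9906783 to 18107934 counts. The 5 libraries of a group are called biological replicates, with no word on whether they came from separate cultures, so the p-values measure the spread between these libraries. The values are relative to the assigned reads of each library, from RNA depleted of ribosomal and globin RNA. Fewer cells of a kind and less of an RNA per cell therefore cannot be told apart.

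The targeted gene was checked first. *Abcb10* measured 1212, 1167, 1216, 1257 and 1227 CPM in the 5 WT libraries and 229, 234, 230, 178 and 176 CPM in the 5 Abcb10-null libraries. All 5 Abcb10-null libraries lay below all 5 WT libraries, with a log2 fold change of -2.54 (SE 0.117, adjusted p = 5.51e-08), and the transcript was still counted in each of them. Defining erythroid genes were counted in all 10 libraries: *Gata1*, *Klf1*, *Tal1* and *Epor* at 137 CPM or more and *Slc4a1* at 25.4 CPM or more. Of 22 myeloid and mast cell markers 6 had enough counts to be tested and 1 rose (*Lyz2*, at most 1.84 CPM, with its call lost without WT replicate 4 at an adjusted p of 0.0514; without WT replicate 5, 1 rose and 1 fell), and of 9 lymphoid markers none had enough counts. The summed level of the myeloid and mast cell markers was 7.88 to 17.5 CPM in WT and 8.42 to 21.7 CPM in Abcb10-null libraries, with *Cpa3* and *Fcer1a* at 0.153 CPM or less throughout. The chosen markers do not cover all myeloid genes, and *Fcgr1*, *Ccr1l1* and *Ccr1*, described below, rose. Megakaryocyte markers, some of which erythroid precursors also express, summed to 1923 to 2514 CPM in WT and 2013 to 3472 CPM in Abcb10-null libraries.

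WT replicate 5 stood apart from the other WT libraries. For 52.7% of the genes called between genotypes it lay outside the range of its 4 fellows on the side of the Abcb10-null libraries, against 4.99% to 35.1% for the other 9 libraries, and for genes that differed by more than 1 on the log2 scale it had covered 0.444 of the distance at the median. Its *Abcb10* level, 1227 CPM, was within the range of the other 4, 1167 to 1257 CPM. What sets it apart was not tested. Values without it are given beside the results it moves most. Abcb10-null replicate 4 had the most reads in 1967 olfactory and vomeronasal receptor genes, which these cells should not express, at 813 CPM against 19.1 to 269 in the other 9 libraries, so low values in it are less certain.

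**Figure D1:**
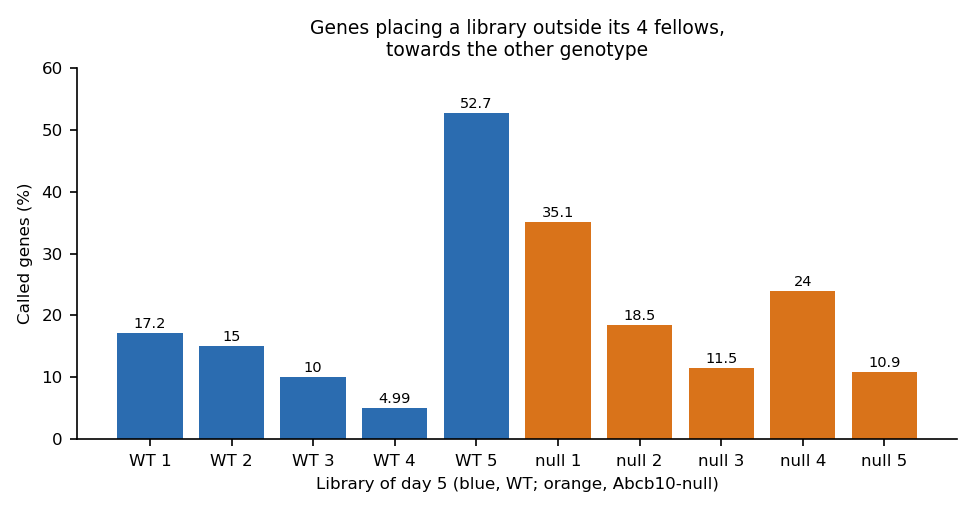
Each bar is 1 library of day 5 and shows, in percent, for how many of the 4769 genes called between genotypes that library lay outside the range of its 4 fellows towards the other genotype. WT replicate 5 reached 52.7%, and Abcb10-null replicate 1 was next at 35.1%.

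Abcb10-null and WT cells differed widely at day 5. Of 12676 genes tested, 4769 were called (37.6%), 2509 of them higher (19.8%) and 2260 lower (17.8%) in Abcb10-null cells. An absolute log2 fold change over 0.58, the limit of the study, was passed by 3277 called genes (25.9%), 1636 up and 1641 down, and a difference of more than 4-fold by 110 and 142. For 3068 genes (24.2%) the 5 libraries of one genotype did not overlap with those of the other. Without WT replicate 5, 5594 of 13037 genes were called (42.9%), and 4583 of the 4769 calls were kept with the same sign. The median log2 fold change over all genes was -0.016.

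The clone already differed from WT before DMSO. At day 0, in other libraries, 4642 of 12912 genes were called (36.0%), with 1498 past 0.58. Of 11999 genes tested at both days, 1913 were called at both. This is 41.3% of the day 5 calls, where 36.0% of all genes were called at day 0. It is 43.8% of the day 0 calls, where 37.6% of all genes were called at day 5. Of the 1913, 1175 had the same sign and 738 the opposite sign. The difference between genotypes itself differed between day 5 and day 0 for 4417 of 14020 genes (31.5%), tested as an interaction over the 20 libraries. For most lists that follow, the counts at both days are given side by side.

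**Figure D2:**
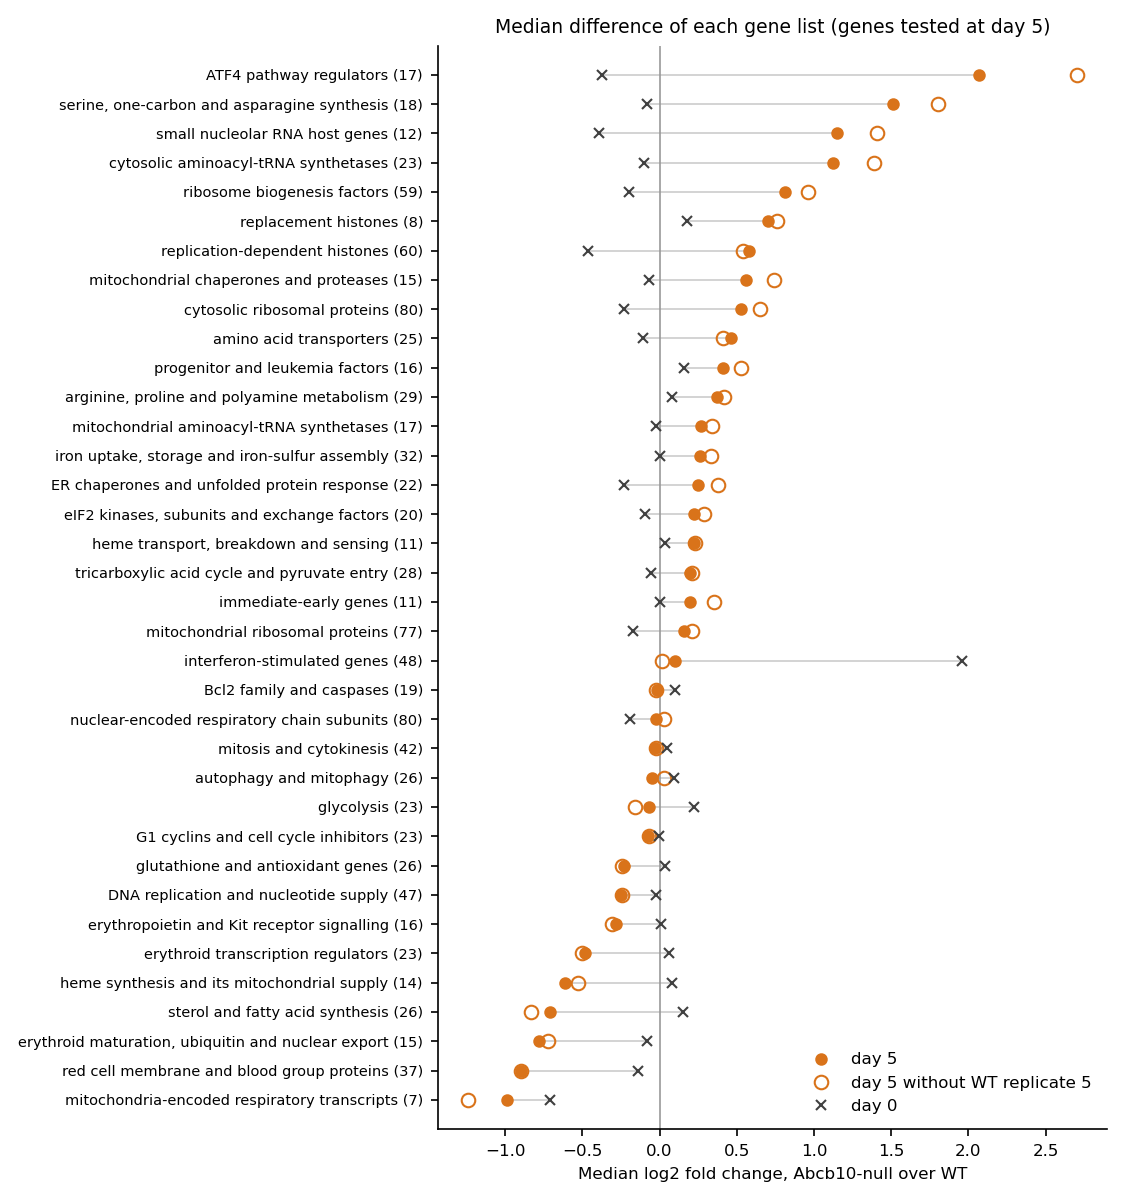
For each gene list, points mark the median difference, Abcb10-null over WT on the log2 scale, at day 5 (filled circles), at day 5 without WT replicate 5 (open circles) and at day 0 in other libraries (crosses). ATF4 pathway regulators had the highest day 5 median, 2.07, and the red cell membrane list one of -0.90.

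Regulators of the ATF4 pathway rose without exception. All 17 tested members were called higher in Abcb10-null cells, with a median of 2.07 (2.70 without WT replicate 5), where 19.8% of all genes were. At day 0, 2 of 17 were higher and 9 lower, with a median of -0.37, and the change from day 0 was called for all 17. *Atf4* itself measured 186, 137, 167, 181 and 404 CPM in WT and 576, 480, 543, 613 and 696 CPM in Abcb10-null cells (log2 fold change 1.43, SE 0.249, adjusted p = 0.000752). WT replicate 5 stood between the other WT libraries and the Abcb10-null ones, which it did not reach. *Chac1*, which encodes a gamma-glutamylcyclotransferase that breaks down glutathione, measured 2.51, 1.16, 1.77, 0.939 and 17.6 CPM in WT and 79, 76.9, 77.5, 109 and 137 CPM in Abcb10-null cells (4.27, SE 0.662, adjusted p = 0.000365), and 5.90 without WT replicate 5. *Trib3*, a pseudokinase gene induced by ATF4 and CHOP, measured 25.1, 18.3, 26.5, 31.4 and 417 CPM against 760, 912, 975, 742 and 971 CPM (3.07, SE 0.794, adjusted p = 0.00894), and 5.10 without WT replicate 5. In both genes the groups did not overlap, yet the height of the fold depends on that 1 library.

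Over all genes, the groups did not overlap in 24.2%, counting both directions. In 13 of the 17 members all Abcb10-null libraries lay above all WT libraries. *Ddit3*, which encodes the stress factor CHOP, was not one of these, since WT replicate 5 overlapped: its WT values were 68.3, 55.4, 66.7, 72.5 and 312 CPM and its Abcb10-null values 294, 377, 414, 364 and 515 CPM (1.77, SE 0.427, adjusted p = 0.00604, and 2.58 without that library). *Atf3*, another stress-induced factor of the ATF family, measured 11, 6.09, 7.37, 9.68 and 16.6 CPM against 40, 63.2, 64.1, 46.6 and 65.5 CPM (2.45, SE 0.249, adjusted p = 1.84e-05), and the groups were well apart. *Ddit4*, an inhibitor of mTORC1, measured 97.6, 60.7, 92.5, 82.1 and 91.4 CPM against 198, 260, 251, 210 and 269 CPM (1.49, SE 0.14, adjusted p = 1.07e-05), and WT replicate 5 was among its fellows. *Eif4ebp1*, a brake on cap-dependent translation, rose by 2.24 (adjusted p = 3.98e-05), *Herpud1*, a component of protein degradation at the endoplasmic reticulum, by 2.43 (adjusted p = 5.15e-05), *Jdp2*, a repressor that pairs with Jun, by 3.09 (adjusted p = 5.03e-05, 3.75 without WT replicate 5), and the secreted glycoprotein *Stc2* by 3.13 (adjusted p = 2.64e-06). The smallest rise was that of *Ppp1r15a*, the stress-induced subunit of the phosphatase that acts on eIF2, by 0.61 (adjusted p = 0.00528), which a single fit of all 30 libraries did not call. *Atf5* is the least certain call: it measured 5.38, 6.86, 4.85, 7.37 and 50.6 CPM against 46.5, 42.9, 47.6, 44.6 and 58.5 CPM (1.66, adjusted p = 0.0327), lost its call without any one of WT replicates 1 to 4 or Abcb10-null replicates 1, 2, 3 and 5 (adjusted p of 0.054 to 0.0801), and rose by 2.96 without WT replicate 5.

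**Figure D3:**
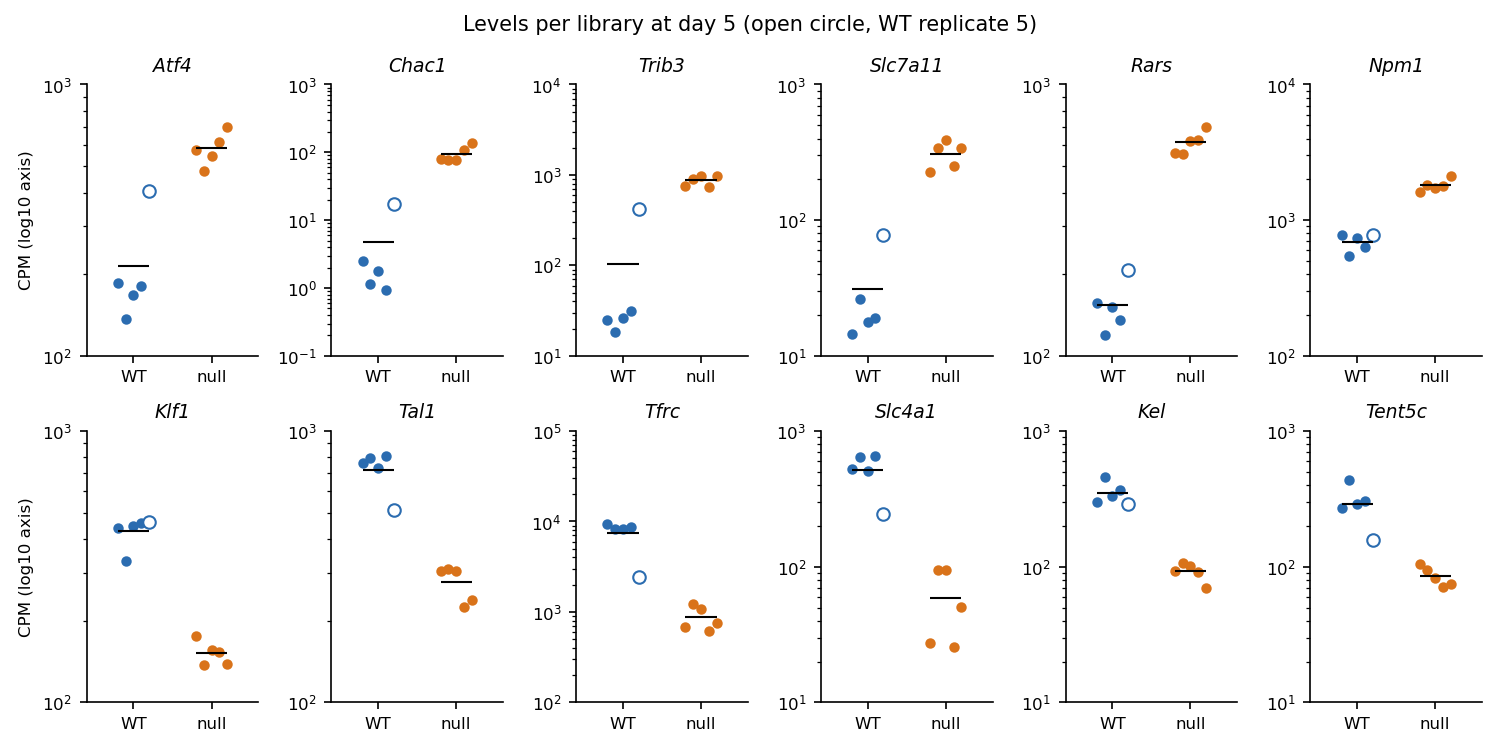
Each panel is 1 gene and each point 1 library of day 5, with CPM on a log10 axis. WT libraries are blue, Abcb10-null libraries are orange, bars mark the group means, and an open circle marks WT replicate 5. The upper 6 genes lay higher in Abcb10-null cells and the lower 6 lay lower, and WT replicate 5 lay between the groups for *Trib3* (417 CPM) and *Tfrc* (2413 CPM). The axes of the panels differ in range.

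The transcripts of the kinases that start this response did not rise. *Eif2ak4*, the kinase for amino acid shortage, measured 70.2, 81.1, 74.9, 75.3 and 98.4 CPM in WT and 86.2, 71.4, 74.6, 85.4 and 77.8 CPM in Abcb10-null cells, with a difference of -0.017 (SE 0.112, adjusted p = 0.921), and *Eif2ak3*, the kinase of the endoplasmic reticulum, differed by -0.074 (SE 0.121, adjusted p = 0.656). *Eif2ak1*, the heme-regulated kinase, fell by 1.02 on the log2 scale (adjusted p = 0.0164) with overlapping groups, and *Eif2ak2*, the kinase for double-stranded RNA, fell by 0.56 (adjusted p = 0.00209), although at day 0 it had been higher by 1.34. *Impact*, which encodes a protein that restrains Eif2ak4, rose by 1.22 (adjusted p = 0.000108).

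The promoters of these genes are shown because the members moved together. The letters TGATGNAAN, a C/EBP-ATF element, were searched on both strands of the 250 bases before each start in RefSeq's promoter windows (GRCm38.p6). They were found in 7 of 23 windows of the ATF4 pathway regulators (30.4%, 18 of 19 genes matched), in 3 of 16 of the cytosolic aminoacyl-tRNA synthetases (18.8%), in 2 of 20 of the serine and asparagine list (10%) and in 3 of 39 of the amino acid transporters (7.69%), against 3.44% of all 32851 windows. The matches are in capitals in the stretches below, which run 5′ to 3′ on the strand of the gene and end before its start. *Slc7a11* has a pair of matches facing each other.
*Chac1* (chr2:119351002-119351102, plus strand): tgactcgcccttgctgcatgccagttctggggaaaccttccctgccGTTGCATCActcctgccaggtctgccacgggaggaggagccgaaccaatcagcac
*Atf3* (chr1:191183390-191183490, minus strand): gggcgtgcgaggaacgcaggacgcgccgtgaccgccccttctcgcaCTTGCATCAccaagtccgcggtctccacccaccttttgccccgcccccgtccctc
*Herpud1* (chr8:94386270-94386370, plus strand): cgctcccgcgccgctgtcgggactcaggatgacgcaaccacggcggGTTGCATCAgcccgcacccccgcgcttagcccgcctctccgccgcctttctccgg
*Slc7a11* (chr3:50443614-50443725, minus strand): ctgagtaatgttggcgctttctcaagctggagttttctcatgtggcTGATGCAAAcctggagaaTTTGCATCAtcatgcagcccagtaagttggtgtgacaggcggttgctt
*Asns* (chr6:7693210-7693278, minus strand): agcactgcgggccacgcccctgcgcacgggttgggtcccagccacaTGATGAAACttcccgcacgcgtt
A match describes the letters and is not evidence that ATF4 was bound there.

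Many genes of amino acid synthesis and tRNA charging rose as well. Of 18 tested members of serine, one-carbon and asparagine synthesis, 13 rose (72.2%, against 19.8% of all genes) and none fell. The median was 1.51, and at day 0, 2 of 19 were higher and 8 lower. *Aldh1l2*, a mitochondrial formyltetrahydrofolate dehydrogenase, measured 1.94, 2.85, 1.4, 2.02 and 13.1 CPM in WT and 28.9, 54.2, 54, 48.1 and 53.4 CPM in Abcb10-null cells (3.45, SE 0.514, adjusted p = 0.000274), and 4.52 without WT replicate 5, again the highest WT library. *Psph*, the last enzyme of serine synthesis, measured 16.9, 11.3, 15.3, 14.9 and 43.3 CPM against 80.4, 140, 160, 91.2 and 143 CPM (2.59, SE 0.339, adjusted p = 0.000111). *Asns*, asparagine synthetase, measured 351, 302, 352, 355 and 902 CPM against 1229, 1451, 1582, 1058 and 1179 CPM (1.52, SE 0.273, adjusted p = 0.000936). *Phgdh*, the first enzyme of serine synthesis, rose by 2.23 (adjusted p = 0.00122, 3.00 without WT replicate 5), *Mthfd2*, a mitochondrial folate enzyme, by 2.22 (adjusted p = 0.000318), and *Cth*, which makes cysteine from cystathionine, by 2.65 (adjusted p = 0.000111). In none of these 6 genes did the genotypes overlap.

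Amino acid transporters were divided, with 11 of 25 risen (44%, against 19.8% of all genes) and 6 fallen (24%, against 17.8%). At day 0, 2 of 23 were higher and 7 lower. *Slc7a11*, the cystine and glutamate exchanger, measured 14.4, 26.1, 17.9, 19.1 and 78.1 CPM in WT and 226, 343, 391, 250 and 339 CPM in Abcb10-null cells (3.31, SE 0.419, adjusted p = 8.88e-05), and 3.99 without WT replicate 5. *Slc7a1*, a transporter of arginine and other cationic amino acids, measured 33.7, 53.6, 30.1, 31.6 and 66.9 CPM against 147, 155, 157, 116 and 147 CPM (1.74, SE 0.212, adjusted p = 6.78e-05), although it had been lower by 0.70 at day 0. *Slc3a2*, the shared heavy chain of several exchangers, rose by 1.99 (adjusted p = 0.000349) and the neutral amino acid carrier *Slc1a4* by 2.05 (adjusted p = 0.000671). In these 4 genes no WT library reached an Abcb10-null library. In the other direction, the glutamine carrier *Slc38a5* fell by 1.34 on the log2 scale (adjusted p = 1.86e-05) and the large neutral amino acid carrier *Slc43a1* by 0.72 (adjusted p = 0.000971).

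Of 23 cytosolic aminoacyl-tRNA synthetases and partners, which load amino acids onto tRNA, 21 rose (91.3%, against 19.8% of all genes) and none fell. The median was 1.12, and at day 0, 1 was higher and 10 lower. *Rars*, the arginyl-tRNA synthetase, had the largest rise: it measured 157, 119, 151, 136 and 207 CPM in WT and 559, 556, 620, 625 and 700 CPM in Abcb10-null cells (1.99, SE 0.144, adjusted p = 1.87e-06), and WT replicate 5, the highest WT library, stayed far below the Abcb10-null libraries. *Lars* rose by 1.78 (adjusted p = 0.000114), *Eprs* by 1.73 (adjusted p = 0.000495) and *Nars* by 1.52 (adjusted p = 0.000114). Of the 17 mitochondrial synthetases, 6 rose (35.3%, against 19.8% of all genes), none fell and 11 were not called. *Ears2* rose most, by 1.48 (adjusted p = 0.000173). Arginine, proline and polyamine genes gave 16 higher (55.2%, against 19.8% of all genes) and 4 lower (13.8%, against 17.8%) of 29 tested. At day 0, 9 of 31 were higher and 8 lower. *Smox*, spermine oxidase, fell most, by 1.25 on the log2 scale (adjusted p = 3.36e-05). *Odc1*, ornithine decarboxylase, measured 313, 252, 322, 311 and 466 CPM against 181, 292, 338, 221 and 302 CPM, and its difference of -0.32 (SE 0.186, adjusted p = 0.194) did not pass the test. *Ass1* and *Arg2* had too few counts to be tested, with at most 1.44 CPM in any library.

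**Figure D4:**
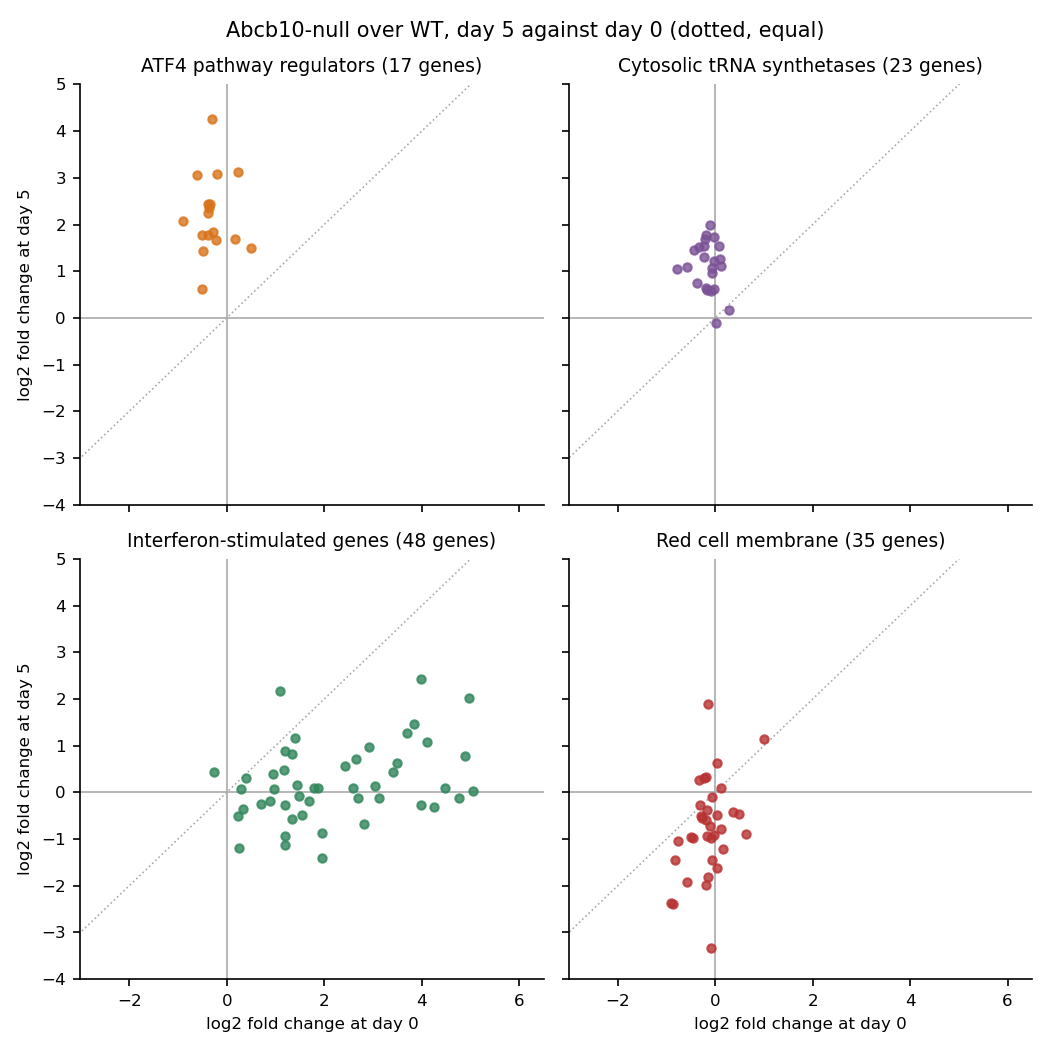
Each point is 1 gene of a list, with its log2 fold change of Abcb10-null over WT at day 0 on the horizontal and at day 5 on the vertical axis, from separate libraries. All 17 ATF4 pathway regulators and 22 of 23 tRNA synthetases lay above 0 at day 5, where at day 0 their medians were -0.37 and -0.099, interferon-stimulated genes had a median of 1.96 at day 0 and 0.099 at day 5, and most red cell membrane genes lay below 0 at day 5.

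The machinery that builds and forms ribosomes was higher in Abcb10-null cells at day 5 and lower at day 0. Of 59 ribosome biogenesis factors, 49 rose at day 5 (83.1%, against 19.8% of all genes) and none fell, with a median of 0.81. At day 0, 1 was higher and 30 lower, and the change between the days was called, upwards, for 51. *Npm1*, a nucleolar chaperone, measured 778, 548, 736, 638 and 778 CPM in WT and 1620, 1827, 1718, 1797 and 2126 CPM in Abcb10-null cells (1.39, SE 0.127, adjusted p = 9.34e-06). *Wdr43*, a factor of the small subunit processome, rose most, by 1.62 (adjusted p = 5.50e-06), and *Nop56*, a core protein of box C/D particles, rose by 1.16 (adjusted p = 0.0001). *Ncl*, nucleolin, measured 248, 268, 283, 240 and 170 CPM against 187, 239, 237, 272 and 267 CPM, and its difference of -0.008 (SE 0.143, adjusted p = 0.973) did not pass the test. In the 3 genes that rose, no WT library reached an Abcb10-null library. Of 80 cytosolic ribosomal protein genes, 57 rose (71.2%, against 19.8% of all genes) and none fell (median 0.53). Without WT replicate 5, 71 rose, and at day 0, 4 were higher and 50 lower. *Rpl22l1*, a paralog of a ribosomal protein, had the largest rise (1.58, SE 0.2, adjusted p = 8.79e-05). Of 12 small nucleolar RNA host genes, 8 rose (66.7%, against 19.8% of all genes) and none fell (0 and 8 at day 0). *Snhg12* rose most, by 2.56 (adjusted p = 1.03e-05), although 25.2% of its exon bases are shared with *Snora16a*. The elongation factor *Eef1a1* measured 8415, 6190, 8949, 7801 and 11154 CPM in WT and 14453, 12557, 12809, 15393 and 15601 CPM in Abcb10-null cells (0.74, SE 0.152, adjusted p = 0.00228), and the ribosomal scaffold *Rack1* rose by 0.93 (adjusted p = 0.00128). Mitochondrial ribosomal proteins gave 23 higher (29.9%, against 19.8% of all genes) and 5 lower (6.49%, against 17.8%) of 77. Another 49 were not called, and the median was 0.16. At day 0, 2 were higher and 36 lower.

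Erythroid regulators moved the other way. Of 23 tested, 10 fell (43.5%, against 17.8% of all genes) and 2 rose (8.7%, against 19.8%), with a median of -0.48. Without WT replicate 5, 11 fell and 4 rose. At day 0, 5 were higher and 3 lower. *Klf1*, which activates genes of the mature red cell, measured 441, 332, 445, 457 and 464 CPM in WT and 175, 137, 156, 153 and 139 CPM in Abcb10-null cells (-1.49, SE 0.117, adjusted p = 2.64e-06). WT replicate 5 was the highest WT library here, and *Klf1* had not differed at day 0 (0.01). *Tal1*, a partner of Gata1, measured 760, 793, 728, 809 and 510 CPM against 304, 310, 306, 225 and 239 CPM (-1.38, SE 0.147, adjusted p = 2.50e-05). *Gata1* measured 348, 314, 331, 349 and 322 CPM against 204, 239, 250, 188 and 159 CPM (-0.68, SE 0.122, adjusted p = 0.000947), a smaller fall in which the groups still did not overlap. *Nfe2*, which acts on late erythroid genes, fell by 1.01 on the log2 scale (adjusted p = 6.49e-05), and *Sox6* by 2.35 (adjusted p = 0.000216), after having been higher by 0.75 at day 0. *Stat5a*, which acts below the erythropoietin receptor, was 1 of the 2 that rose (0.75, adjusted p = 0.00334).

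Of 16 factors of progenitors and of erythroleukemia 7 rose (43.8%, against 19.8% of all genes) and 1 fell (6.25%, against 17.8%). Another 8 did not pass the test. At day 0, 5 of 16 were higher and 3 lower. *Myb*, which keeps precursors immature, measured 9.26, 7.09, 6.35, 6.14 and 14.8 CPM in WT and 25.3, 33.3, 39.3, 36.7 and 57.3 CPM in Abcb10-null cells (2.13, SE 0.27, adjusted p = 8.94e-05). *Spi1*, the factor whose activation drives this leukemia, measured 13.3, 10.8, 12.9, 14.7 and 12.9 CPM against 28.7, 40.6, 46.5, 25.1 and 27.1 CPM (1.38, SE 0.184, adjusted p = 0.000123), and *Myc* measured 15.5, 18.3, 14.4, 13.5 and 17.4 CPM against 26.1, 26.4, 28.5, 30.3 and 31 CPM (0.84, SE 0.128, adjusted p = 0.000307). No WT library reached an Abcb10-null library in these 3 genes. *Kit* was at 2.66 CPM or less in all 10 libraries and was not tested.

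Genes of the red cell membrane fell broadly. Of 37 tested, 24 fell (64.9%, against 17.8% of all genes) and 3 rose (8.11%, against 19.8%), with a median of -0.90. Without WT replicate 5, 26 fell and 5 rose. At day 0, 13 of 35 were lower and 4 higher. *Slc4a1*, the band 3 anion exchanger, measured 527, 646, 503, 651 and 246 CPM in WT and 27.6, 95, 95.3, 25.4 and 50.3 CPM in Abcb10-null cells (-3.13, SE 0.399, adjusted p = 9.30e-05). *Kel*, the Kell blood group protease, measured 302, 459, 334, 367 and 291 CPM against 92.2, 107, 101, 92.1 and 69.4 CPM (-1.93, SE 0.15, adjusted p = 2.64e-06), and *Epb42*, a protein that ties band 3 to the skeleton, measured 162, 180, 170, 191 and 103 CPM against 49.2, 81.5, 75.4, 46.1 and 44.6 CPM (-1.44, SE 0.207, adjusted p = 0.000214). In these 3 genes all Abcb10-null libraries lay below all WT libraries, and WT replicate 5 was the lowest WT library. *Ank1*, ankyrin, measured 205, 543, 219, 276 and 180 CPM against 52.2, 68.8, 67.1, 45.5 and 43.7 CPM (-2.36, SE 0.281, adjusted p = 5.73e-05), and *Atp2b4*, a calcium pump of the plasma membrane, 154, 819, 177, 343 and 85.6 CPM against 41.6, 30.9, 24.6, 35.1 and 24.3 CPM (-3.34, SE 0.51, adjusted p = 0.000323). WT replicate 2 was far above the other WT libraries in both, and without it the log2 fold change of *Atp2b4* was -2.62, but each remaining WT library was above all Abcb10-null libraries. *Add3*, gamma adducin, was the largest of the 3 rises (1.90, adjusted p = 4.34e-05).

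The letters AGATAA, read by GATA factors, were found on either strand in 10 of 41 promoter windows of the membrane list (24.4%) and 3 of 17 of the erythroid maturation list (17.6%), against 9.99% of all windows, and in 0 of 15 windows of the heme synthesis list. The stretches of 3 genes that fell are shown with the match in capitals, again 5′ to 3′ on the strand of the gene.
*Epb42* (chr2:121037052-121037127, minus strand): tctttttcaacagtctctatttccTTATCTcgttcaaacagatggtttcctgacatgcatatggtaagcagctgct
*Kel* (chr6:41704330-41704427, minus strand): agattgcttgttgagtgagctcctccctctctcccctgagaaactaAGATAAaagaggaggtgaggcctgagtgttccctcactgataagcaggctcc
*Trim10* (chr17:36869365-36869462, plus strand): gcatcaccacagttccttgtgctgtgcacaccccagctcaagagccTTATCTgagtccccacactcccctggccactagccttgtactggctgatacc
Enhancers, where much GATA factor binding lies, are outside these windows. Only AGATAA was searched, so the 0 of 15 for heme synthesis does not show that those promoters lack other sites for GATA factors.

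Late maturation genes fell too, 11 of 15 (73.3%, against 17.8% of all genes), and 1 rose (6.67%, against 19.8%). At day 0, 2 of 15 were higher and 2 lower. *Trim10*, a ubiquitin ligase gene of terminal erythroid cells, measured 252, 206, 212, 250 and 218 CPM in WT and 58.1, 71.8, 62.5, 48.1 and 37.2 CPM in Abcb10-null cells (-2.03, SE 0.159, adjusted p = 2.64e-06). *Tent5c*, a poly(A) polymerase gene, measured 269, 432, 291, 304 and 158 CPM against 104, 94.2, 83.2, 70.4 and 75 CPM (-1.77, SE 0.214, adjusted p = 6.64e-05). *Xpo7*, an exporter of nuclear proteins in maturing red cells, was the exception: it rose by 0.69 (adjusted p = 0.000382). Genes of erythropoietin and Kit signalling gave 8 lower (50%, against 17.8% of all genes) and 2 higher (12.5%, against 19.8%) of 16. At day 0, 6 of 15 were higher and 2 lower. *Epor*, the erythropoietin receptor, measured 445, 295, 430, 456 and 417 CPM against 255, 284, 307, 192 and 168 CPM (-0.76, SE 0.173, adjusted p = 0.0043), with 1 overlapping pair of libraries. Its targets *Cish* and *Erfe*, a feedback inhibitor and the hormone erythroferrone, fell by 2.05 (adjusted p = 0.000944) and 2.03 (adjusted p = 0.000323) on the log2 scale.

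Of 32 genes of iron uptake, storage and iron-sulfur assembly, 12 rose (37.5%, against 19.8% of all genes). In the other direction 7 fell (21.9%, near the 17.8% of all genes). Without WT replicate 4, 7 rose. *Tfrc*, the transferrin receptor through which erythroid cells take up iron, measured 9392, 8323, 8288, 8771 and 2413 CPM in WT and 680, 1238, 1078, 619 and 759 CPM in Abcb10-null cells (-3.09, SE 0.332, adjusted p = 2.68e-05). WT replicate 5 was far below the other WT libraries and still above all Abcb10-null libraries. At day 0 *Tfrc* had been slightly higher in the clone (0.25, adjusted p = 0.0202). *Slc25a37*, mitoferrin 1, the mitochondrial iron importer, measured 189, 362, 208, 225 and 122.5 CPM against 43.8, 78.1, 65, 39.6 and 52.9 CPM (-1.98, SE 0.26, adjusted p = 0.000111). The ferrireductase *Steap3* fell by 1.28 (adjusted p = 0.000227) and the iron exporter *Slc40a1*, ferroportin, by 1.00 on the log2 scale (adjusted p = 2.56e-05). *Hspa9*, a mitochondrial chaperone that serves iron-sulfur assembly, had the largest rise, from 289, 231, 294, 250 and 768 CPM in WT to 1572, 1754, 1876, 1623 and 2349 CPM in Abcb10-null cells (2.32, SE 0.304, adjusted p = 0.000108).

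Of 14 genes of heme synthesis and its supply, 8 fell (57.1%, against 17.8% of all genes) and 1 rose (7.14%, against 19.8%), with a median of -0.61. Without WT replicate 5, 8 fell and 2 rose. At day 0, 4 were lower and 3 higher. *Alas1*, the housekeeping form of the first enzyme, measured 21.8, 25.9, 24, 27.3 and 33.6 CPM in WT and 17.3, 16.4, 17.3, 19 and 17.9 CPM in Abcb10-null cells (-0.59, SE 0.136, adjusted p = 0.00437), having been higher by 0.42 at day 0. All Abcb10-null libraries were below all WT libraries in this gene. Of 11 genes of heme transport, breakdown and sensing, 3 rose (27.3%) and 2 fell (18.2%), near the 19.8% and 17.8% of all genes. Without WT replicate 5, 5 rose and 2 fell. *Hmox1*, heme oxygenase, which breaks heme down, was among those that rose and measured 7.25, 5.63, 9.61, 6.14 and 17.8 CPM against 54.3, 70.6, 57.7, 51 and 88.8 CPM (2.79, SE 0.296, adjusted p = 2.46e-05). *Flvcr1*, a heme exporter, rose by 0.57 (adjusted p = 0.00117), and *Abcb6*, another mitochondrial transporter of the ABC family, fell by 1.54 on the log2 scale (adjusted p = 4.00e-06), although 55.2% of its exon bases are shared with *Gm29253*.

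Lipid synthesis and uptake fell, with 15 of 26 genes lower (57.7%, against 17.8% of all genes) and 3 higher (11.5%, against 19.8%). The median was -0.71, and at day 0 none was lower and 9 were higher. *Scd2*, a fatty acid desaturase, measured 1397, 1477, 1277, 1270 and 216 CPM in WT and 107, 193, 150, 90.2 and 63.3 CPM in Abcb10-null cells (-3.22, SE 0.447, adjusted p = 0.000166). WT replicate 5 was near the Abcb10-null libraries, the highest of which had 193 CPM. The gap between the groups in *Scd2* was thus narrow only through that library. *Srebf2*, the main activator of sterol genes, fell by 0.88 on the log2 scale (adjusted p = 0.000393).

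A few glycolytic genes with a known part in red cells fell. *Pklr*, the pyruvate kinase of liver and red cells, measured 49, 42.6, 43.9, 34.2 and 27.4 CPM in WT and 11.8, 18.7, 14.2, 9.21 and 6.98 CPM in Abcb10-null cells (-1.69, SE 0.244, adjusted p = 0.000221). The Abcb10-null libraries were all below the WT libraries. *Hk1*, a hexokinase, fell by 1.16 (adjusted p = 0.00042) and *Bpgm*, which makes the 2,3-bisphosphoglycerate of red cells, by 0.74 on the log2 scale (adjusted p = 0.000925). *Pkm* and *Ldha*, isozymes of most growing cells, did not pass the test: *Pkm* differed by 0.28 (SE 0.229, adjusted p = 0.362) and *Ldha* by -0.078 (SE 0.237, adjusted p = 0.818). Over the list 5 of 23 fell (21.7%, near the 17.8% of all genes) and 2 rose (8.7%, against 19.8%). Antioxidant genes gave 7 lower (26.9%, against 17.8% of all genes) and 4 higher (15.4%, against 19.8%) of 26, and 15 were not called. Without WT replicate 5, 11 were lower and 5 higher. *Nqo1*, a quinone reductase, measured 41.8, 33.5, 41.4, 42.6 and 34.4 CPM against 9.14, 11.7, 12.7, 7.98 and 4.83 CPM (-2.05, SE 0.219, adjusted p = 2.50e-05), *Nfe2l2*, which encodes the activator NRF2, fell by 0.71 (adjusted p = 0.000807), and *Prdx2*, a major peroxiredoxin of red cells, by 1.09 (adjusted p = 3.94e-05). *Sqstm1*, an autophagy receptor on the same list, rose by 0.94 (adjusted p = 0.0004).

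Respiratory chain genes encoded in the nucleus gave 10 higher (12.5%, against 19.8% of all genes) of 80. In the other direction 17 were lower (21.2%, near the 17.8% of all genes), and the median was -0.02. Without WT replicate 2, 29 were lower, and without Abcb10-null replicate 5, 6 were higher. At day 0, 43 had been lower and 4 higher. *Cox6b2*, a testis form of a cytochrome c oxidase subunit, fell most (-1.75, adjusted p = 5.64e-05). *Cox6a2*, the muscle form of another, measured 0, 0, 0.0933, 0.217 and 9.5 CPM in WT and 19.4, 17.1, 23.2, 23.4 and 35.3 CPM in Abcb10-null cells. It was nearly absent from WT replicates 1 to 4 and not from WT replicate 5, so its log2 fold change of 3.50 (adjusted p = 0.0112) rose to 8.09 without that library. Of 7 mitochondria-encoded transcripts tested, 3 fell (42.9%, against 17.8% of all genes) and none rose. *mt-Nd4* fell most (-1.48, adjusted p = 0.00834), and 6 of 7 had been lower at day 0. In each of the 7 the genotypes overlapped at day 5, where 24.2% of all genes had no overlap. All 13 such genes together summed to 8587 to 11233 CPM in WT and 8092 to 10908 CPM in Abcb10-null libraries. Mitochondrial chaperones and proteases gave 8 higher (53.3%, against 19.8% of all genes) and 1 lower (6.67%, against 17.8%) of 15. At day 0, 1 was higher and 4 lower. *Lonp1*, the matrix protease, measured 188, 149, 191, 178 and 394 CPM against 398, 444, 469, 435 and 491 CPM (1.02, SE 0.22, adjusted p = 0.00292), with WT replicate 5 just below the lowest Abcb10-null library.

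Of 47 genes of DNA replication, 14 fell (29.8%, against 17.8% of all genes) and 2 rose (4.26%, against 19.8%). Of 42 mitotic genes 11 fell (26.2%) and 9 rose (21.4%), not far from the 17.8% and 19.8% of all genes, and a single library left out (WT 2, 3 or 4, or Abcb10-null 1, 2, 3 or 5) took the latter to 4 or 5. *Uhrf1*, which maintains DNA methylation after replication, measured 71.6, 47.6, 51.2, 58.2 and 59.9 CPM in WT and 14.3, 25, 25.3, 9.72 and 16.8 CPM in Abcb10-null cells (-1.66, SE 0.23, adjusted p = 0.00017), and *Tk1*, thymidine kinase, measured 41.5, 20.5, 38.9, 28.8 and 32.8 CPM against 9.33, 14.5, 18, 7.26 and 10.4 CPM (-1.44, SE 0.25, adjusted p = 0.000753). The genotypes did not overlap in either gene. *Pcna* and *Mcm2*, core replication factors, did not pass the test and differed by 0.049 (SE 0.148, adjusted p = 0.819) and 0.0035 (SE 0.144, adjusted p = 0.988). *Cdkn2c*, the inhibitor p18, measured 139, 111, 123.3, 135 and 124 CPM against 60.8, 62.2, 56, 62.4 and 65.2 CPM (-1.04, SE 0.0959, adjusted p = 9.34e-06), and the antiproliferative pair *Btg1* and *Btg2* moved apart, by 1.11 (adjusted p = 1.65e-05) and -1.19 (adjusted p = 2.63e-05). Of 60 replication-dependent histone genes, 30 rose (50%, against 19.8% of all genes) and 9 fell (15%, near the 17.8% of all genes). Without WT replicate 1, 5 fell. At day 0, 41 had been lower and 1 higher. These genes are near copies of each other, so reads can be shared among them. Of 8 replacement histones 5 rose (62.5%, against 19.8% of all genes), *H3f3b* most: it measured 684, 618, 676, 743 and 710 CPM against 1884, 2319, 2568, 2456 and 2913 CPM (1.82, SE 0.126, adjusted p = 1.71e-06). *H1f0*, a linker histone of differentiated cells, measured 1555, 1010, 1440, 1433 and 1447 CPM against 2931, 3910, 4110, 2548 and 3450 CPM (1.30, SE 0.159, adjusted p = 6.80e-05), and in both genes the lowest Abcb10-null library was far above the highest WT library.

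Interferon-stimulated genes, which the clone held high before DMSO, were close to WT at day 5. At day 0, 48 of 51 were higher and 1 lower (median 1.96). At day 5, 14 of 48 were higher (29.2%, against 19.8% of all genes) and 9 lower (18.8%, near the 17.8% of all genes), with a median of 0.099. The higher ones were 7 or 8 when Abcb10-null replicate 2 or 3 or WT replicate 3 was left out. The difference had changed downwards for 40 of 51 and upwards for 2. *Irf7*, a master regulator of the response, measured 12.6, 8.71, 9.15, 12.9 and 9.31 CPM in WT and 12.3, 11.5, 8.76, 9.21 and 7.05 CPM in Abcb10-null cells at day 5 (-0.11, SE 0.196, adjusted p = 0.69), against a log2 fold change of 4.77 (adjusted p = 1.33e-13) at day 0. *Oas3*, a sensor of double-stranded RNA, measured 11, 9.79, 8.77, 11.3 and 9.13 CPM against 6.53, 8.28, 5.73, 6.34 and 4.29 CPM, which is lower by 0.68 on the log2 scale (adjusted p = 0.0143), after a difference of 2.81 at day 0. Some members stayed higher: *Ddx58*, the RNA sensor RIG-I, measured 15.1, 15.2, 15.5, 15.7 and 12.9 CPM against 35, 35.9, 38.5, 39.6 and 31.5 CPM (1.28, SE 0.118, adjusted p = 9.43e-06), down from a difference of 3.70, and *Lgals3bp*, a secreted glycoprotein, was higher by 2.43 (adjusted p = 0.00048), against 3.99. *Rsad2*, viperin, was higher by 0.79 (adjusted p = 0.0283), a call lost without any one of WT replicates 3 to 5 or Abcb10-null replicates 2 and 3 (adjusted p of 0.0533 to 0.0886), against 4.88 at day 0. The letters GAAA followed by any 2 bases and GAAA again, the interferon element, were on either strand in 17 of 49 promoter windows of the list (34.7%), against 2.98% of all windows, as in these stretches before the starts of a gene that fell and of one that stayed higher.
*Oas3* (chr5:120777679-120777780, minus strand): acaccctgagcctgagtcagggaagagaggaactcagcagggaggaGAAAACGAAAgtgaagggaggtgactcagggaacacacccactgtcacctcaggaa
*Rsad2* (chr12:26456517-26456618, minus strand): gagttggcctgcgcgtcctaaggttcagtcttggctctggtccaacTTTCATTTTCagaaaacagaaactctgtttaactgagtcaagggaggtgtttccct
Both genes hold the letters, and at day 5 they were called in opposite directions.

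Among called genes without overlap, with at least 5 CPM in the higher group and more than 3 counts in at least 4 libraries of the lower group, the 12 that rose most were *Chac1*, *Trib3*, *Jdp2*, *Stc2*, *Aldh1l2* and *Slc7a11* of the lists above and 6 others. *Fcgr1*, a high-affinity receptor for IgG of myeloid cells, measured 0.359, 0.54, 1.77, 0.722 and 4.63 CPM in WT and 17.2, 28.1, 32.7, 38.2 and 28 CPM in Abcb10-null cells (4.12, SE 0.522, adjusted p = 8.88e-05), and its change from day 0 was the largest of these genes (4.81, adjusted p = 6.13e-07). *Plekha1*, a phosphoinositide-binding adaptor, measured 4.02, 2.24, 4.01, 2.02 and 36.8 CPM against 76.2, 113, 135, 72.4 and 103 CPM (3.32, SE 0.689, adjusted p = 0.0024). WT replicate 5 was the highest WT library in both, and without it the log2 fold changes were 5.13 and 5.03. *Slc18a2*, the vesicular monoamine transporter, measured 6.89, 6.17, 4.2, 6.07 and 5.44 CPM against 52.2, 59.2, 57.5, 51.1 and 47.5 CPM (3.21, SE 0.148, adjusted p = 5.51e-08), and *Ankrd36* 1.08, 1.16, 1.03, 1.44 and 1.31 CPM against 6.84, 11.5, 11.4, 13.3 and 8.05 CPM (3.07, SE 0.25, adjusted p = 3.69e-06). In these 2 genes WT replicate 5 was among its fellows, and *Slc18a2* had already been higher by 2.02 at day 0. *Havcr2*, the receptor TIM-3, rose by 3.05 (adjusted p = 0.000329, 3.89 without WT replicate 5) and *Fam129a*, a stress-induced gene, by 3.02 (adjusted p = 0.00077, 4.11 without it).

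The genes that fell most included *Tfrc*, *Slc4a1*, *Scd2* and *Atp2b4*, described above. *S100a4*, a calcium-binding protein, measured 14.9, 11.7, 14, 12.9 and 8.44 CPM in WT and 1.49, 0.675, 1.24, 1.13 and 0.46 CPM in Abcb10-null cells (-3.61, SE 0.301, adjusted p = 4.13e-06), although 51.7% of its exon bases are shared with *Gm42674*. *Rab3il1*, an exchange factor for Rab proteins, measured 98.2, 97.8, 91.3, 101 and 65.4 CPM against 9.95, 9.81, 10.4, 4.5 and 7.36 CPM (-3.41, SE 0.212, adjusted p = 9.52e-07), and *Aldh1a1*, a retinaldehyde dehydrogenase, measured 50.5, 48.5, 52.4, 50.1 and 20.6 CPM against 2.3, 5.89, 6.12, 5.63 and 6.44 CPM (-3.08, SE 0.301, adjusted p = 1.40e-05). Both *Rab3il1* and *Aldh1a1* had also been lower at day 0, by -1.76 and -2.19 as log2 fold changes, whereas *S100a4* had not differed (0.15, adjusted p = 0.355). *Exoc3l4* fell by 3.36 (adjusted p = 7.30e-06), *Ctsf*, the protease cathepsin F, by 3.17 (adjusted p = 6.79e-05), *Apol8* by 3.17 (adjusted p = 0.000111) and the butyrophilin relative *Btnl10* by 2.91 on the log2 scale (adjusted p = 7.38e-05).

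Some genes were counted almost entirely in one genotype. In 21 genes every Abcb10-null library had more than 3 counts and no WT library did, and in 13 genes the reverse held. The chemokine receptor genes *Ccr1l1* and *Ccr1* led the former. *Ccr1l1* had 111 to 276 counts in the Abcb10-null libraries and 1 count in all WT libraries together, a ratio of 911 (exact 95% interval from 163 to 36016). *Ccr1* had 64 to 140 counts against 3 in all, a ratio of 144 (49 to 701), and *Slamf9*, a receptor of the SLAM family, 19 to 75 against 5 in all, a ratio of 32.7 (13.8 to 102). These ratios are per TMM-scaled library size, and the intervals cover counting error only. All 3 genes had been called higher at day 0 as well. Of the genes of WT cells, *Fbp2*, a fructose bisphosphatase, had 10 to 32 counts in the WT libraries and 8 in all Abcb10-null libraries, a ratio of WT to Abcb10-null of 14.1 (6.88 to 33.5), and *Lax1*, a membrane adaptor of lymphocytes, 4 to 40 against 5, a ratio of 20.3 (8.42 to 64.1).

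Genes next to *Abcb10* were looked at because the guide cut lies among them. Of the 10 nearest tested genes, 5 on each side, *Nup133* and *2310022B05Rik* fell and *Taf5l* and *Urb2* rose. *Nup133*, a nuclear pore gene, measured 108, 143, 116, 120 and 110 CPM in WT and 62.9, 76.3, 77.3, 67.1 and 77.7 CPM in Abcb10-null cells (-0.73, SE 0.109, adjusted p = 0.00029). *Urb2*, a ribosome biogenesis gene, measured 34.5, 36.9, 42.3, 35.3 and 54.3 CPM against 84, 68.2, 72.3, 85.4 and 108 CPM (1.04, SE 0.158, adjusted p = 0.000312), and *Taf5l*, a subunit of a histone acetyltransferase complex, rose by 0.82 (adjusted p = 0.000345). The call of *2310022B05Rik* (-0.92, adjusted p = 0.027) was lost without any one of Abcb10-null replicates 2 to 5 (adjusted p of 0.0528 to 0.0615). This is 4 of 10 called, near the 37.6% of all genes. The median log2 fold change of the chromosome of *Abcb10* was 0.0076, and those of the nuclear chromosomes ran from -0.09 to 0.12.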

How the data were processed

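Abcb10-null and WT MEL cells were compared by total RNA sequencing. The RNA had been depleted of ribosomal and globin RNA, and libraries were stranded and read as pairs. The authors aligned reads with STAR 2.6.1b to GRCm38 with Ensembl release 94 and deposited counts of reads per gene from featureCounts 1.6.3, not normalized; whether strand or multiply mapped reads were used in counting is not given in the sources used here. Symbols and exon overlaps were taken from the GENCODE M21 annotation, which is of the same build, and 37 of 54532 identifiers had no symbol (0.0116% of counts).

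The 5 WT and 5 Abcb10-null libraries of day 5 (9906783 to 18107934 counts, median 13851341) were fitted in R 4.3.3 with the quasi-likelihood test of edgeR 4.0.16, with TMM scaling, filterByExpr and Benjamini-Hochberg adjustment over 12676 genes. The study had used DESeq2. The SE is the log2 fold change divided by the root of the F statistic. Day 0 libraries were fitted separately, and the change between days as an interaction over 20 libraries. Replicates differed by more than sampling noise, with a chi-square per degree of freedom of at least 6.23, so none was merged. Scripts were tested on simulated data.

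Named genes are *Abcb10*, the 12 that rose and fell most (called, without overlap, at least 5 CPM in the higher group, more than 3 counts in at least 4 libraries of the lower group), the key members and the largest rise and fall of each list, the 5 called genes of most counts in each direction, the 6 that changed most from day 0 each way, 5 neighbours on each side, and genes counted in one genotype. Of these, the ones that carry a comparison are described, and some genes that the rules chose are not reported here. The gene lists and these rules were chosen with earlier results of these data known. Alternatives were DESeq2 1.42.0, its size factors in edgeR, no filter on low counts, all 30 libraries in one fit, no globin, mitochondria-encoded and small RNA genes, a replicate block and leaving out each library. Promoter windows and sequences are those of RefSeq, GRCm38.p6.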

Additional observations from a re-analysis of the deposited data

Results flagged for a closer look

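In groups of 5, a library was looked at again when its gap to the nearest fellow took up most of the range of the group by Dixon's criterion, which chance alone meets in about 1 in 20 groups. Of 258 groups, 2 for each tested gene named here, 56 met it, and in 38 of them WT replicate 5 was the library apart. It was the highest WT library for *Add3* (138 CPM), *Aldh1l2* (13.1 CPM), *Asns* (902 CPM), *Atf4* (404 CPM), *Atf5* (50.6 CPM), *Chac1* (17.6 CPM), *Cox6a2* (9.5 CPM), *Cth* (39 CPM), *Ddit3* (312 CPM), *Eif4ebp1* (118 CPM), *Eprs* (1195 CPM), *Fam129a* (93.9 CPM), *Havcr2* (7.13 CPM), *Herpud1* (81.3 CPM), *Hspa9* (768 CPM), *Jdp2* (9.19 CPM), *Lars* (337 CPM), *Lonp1* (394 CPM), *Mthfd2* (236 CPM), *Nars* (337 CPM), *Phgdh* (271 CPM), *Plekha1* (36.8 CPM), *Pmaip1* (46.5 CPM), *Ppp1r15a* (163 CPM), *Psph* (43.3 CPM), *Slc1a4* (82.5 CPM), *Slc3a2* (373 CPM), *Slc7a11* (78.1 CPM), *Snhg12* (45.9 CPM), *Stat5a* (33.9 CPM), *Stc2* (52.3 CPM) and *Trib3* (417 CPM). It was the lowest for *Aldh1a1* (20.6 CPM), *Ddx58* (12.9 CPM), *Rab3il1* (65.4 CPM), *Scd2* (216 CPM), *Tal1* (510 CPM) and *Tfrc* (2413 CPM).

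WT replicate 2 was apart from its fellows for 9 genes. It was the highest for *2310022B05Rik* (30.1 CPM), *Ank1* (543 CPM), *Btnl10* (50.7 CPM) and *Eif2ak1* (152 CPM), and the lowest for *Bpgm* (31.5 CPM), *Epor* (295 CPM), *H1f0* (1010 CPM), *Klf1* (332 CPM) and *Slc43a1* (346 CPM). In WT replicate 4 the single count of *Ccr1l1* gave 0.0722 CPM where the others had 0. Among the Abcb10-null libraries the values apart were the lowest value of *Aldh1a1*, 2.3 CPM in replicate 1, the lowest value of *Aldh1l2*, 28.9 CPM in replicate 1, the highest value of *Ctsf*, 1.29 CPM in replicate 3, the highest value of *Ears2*, 20.9 CPM in replicate 5, the highest value of *Exoc3l4*, 2.66 CPM in replicate 4, the highest value of *Slamf9*, 5.75 CPM in replicate 5, the lowest value of *Slc7a1*, 116 CPM in replicate 4, and the highest value of *Srebf2*, 23.4 CPM in replicate 1. What sets these libraries apart was not tested.

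The difference between genotypes differed between day 5 and day 0, by the interaction test of edgeR, for 4417 genes. Among them were 17 ATF4 pathway regulators and 51 ribosome biogenesis factors that changed upwards and 40 interferon-stimulated genes that changed downwards. For *Fcgr1* the change was 4.81 on the log2 scale.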

How the results depend on the processing

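The number of genes called at day 5 ran from 3802 with all genes that had a count to 5737 with all 30 libraries in one fit. It was 5093 with DESeq2, 4795 with its size factors in edgeR and 4740 without globin, mitochondria-encoded and small RNA genes, and 3787 to 5594 without 1 library. With all genes that had a count, 1726 were higher and 2076 lower, which turns the larger direction. Day 0 gave 4220 to 4892 calls and the change between days 3475 to 4623 under the alternatives that keep all libraries. The replicate block gave 4378 calls at day 5 (2386 higher and 1992 lower), 4220 at day 0 and 4241 for the change, and altered the call of none of the named genes. Deviations of libraries of the same replicate number had correlations of -0.163 to 0.0861. The labels do not say whether the numbers pair the libraries. These correlations cannot decide it, because a shared effect smaller than the spread between libraries could go unseen. Of 129 named genes tested, 125 kept their sign and their side of the threshold under every alternative that kept the 10 libraries, and 119 also without each library in turn. Of 1248 comparisons of a list count with an alternative, 1136 were within 1.5 times. ATF4 pathway regulators gave 15 to 17 risen genes over all alternatives, red cell membrane genes 23 to 26 fallen ones, and cytosolic ribosomal proteins 39 to 71 risen ones. Signs turned only for genes that had not passed the test. *Mcm2* was at -0.012 with DESeq2 size factors, -0.0059 with DESeq2, -0.027 with all genes that had a count, and -0.11 to 0.11 without 1 library. *Ncl* was at 0.0041 with all 30 libraries and at -0.12 to 0.072 without 1 library. Without 1 library, *Eif2ak4* ran from -0.061 to 0.063, *Ldha* from -0.27 to 0.045 and *Pcna* from -0.034 to 0.12. The cause of these shifts was not tested. With 5 libraries per group and at most 18107934 counts in one, genes of a few counts per library are the least certain.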

Other observations

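Some lists not described above also held called genes. *Jun*, an immediate-early factor, measured 0.861, 0.617, 0.84, 0.289 and 1.38 CPM in WT and 4.1, 6.75, 5.17, 2.86 and 4.06 CPM in Abcb10-null cells (log2 fold change 2.51, SE 0.392, edgeR's adjusted p = 0.000382), with no overlap. Of 11 immediate-early genes tested, 3 rose (27.3%, near the 19.8% of all genes) and none fell. *Jun* was the only one of the 11 without overlap, where 24.2% of all genes had none in either direction. *Pmaip1*, which encodes the pro-apoptotic protein Noxa, measured 37.5, 36.9, 37.8, 37.8 and 46.5 CPM against 102, 81, 88.6, 74.7 and 85.3 CPM (1.14, SE 0.115, adjusted p = 1.78e-05) and lay higher in every Abcb10-null library than in any WT library. It had been higher by 0.36 at day 0. Of the 19 genes of the Bcl2 and caspase families 2 rose (10.5%, against 19.8% of all genes) and 1 fell (5.26%, against 17.8%). The other 16 did not pass the test. Without WT replicate 5, 2 rose and 3 fell.

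Of 28 genes of the tricarboxylic acid cycle and pyruvate entry 7 rose (25%, near the 19.8% of all genes). Another 2 fell (7.14%, against 17.8%), and 19 were not called. *Idh2*, the mitochondrial isocitrate dehydrogenase that makes NADPH, rose most: it measured 88.9, 66.7, 86, 76.2 and 134 CPM in WT and 143, 196, 218, 139 and 160 CPM in Abcb10-null cells (0.92, SE 0.186, adjusted p = 0.002), with WT replicate 5 the highest WT library. Chaperones of the endoplasmic reticulum and genes of the unfolded protein response gave 9 higher (40.9%) and 2 lower (9.09%) of 22, against 19.8% and 17.8% of all genes. At day 0, 0 were higher and 12 lower. Autophagy and mitophagy genes gave 7 higher (26.9%) and 5 lower (19.2%) of 26, near the 19.8% and 17.8% of all genes.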
